A study of Homo sapiens with 3 samples.

Results

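The ATF4 integrated stress response genes are 10 transcripts of the amino acid and stress programme run by the transcription factor ATF4. They are ATF4, DDIT3, ATF3, TRIB3, CHAC1, SESN2, DDIT4, ASNS, PSAT1 and PHGDH, and each was found by its symbol in a table of 44591 genes. All 10 had a mean of at least 1 RPKM (reads per kilobase of gene, scaled to the size of the library) over the libraries, as did 12403 genes in all, and the comparisons below ran over these. Of the 10, 9 were lower with si-RBCK1 #1 than with si-Control and 10 of 10 were lower with si-RBCK1 #2, where 48.4% and 46.4% of all genes tested were lower. The members were chosen with earlier results of these data known, so such contrasts with all genes describe them and are not independent support. ASNS, TRIB3 and DDIT4 were at least 2-fold lower with both siRNAs, as were 1.41% of all genes, while SESN2 was higher with si-RBCK1 #1 only, at a log2 ratio of 0.45, against -0.20 with si-RBCK1 #2.

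The study sequenced RNA of Caki-1 cells, a human clear cell renal carcinoma line, to ask which genes respond when RBCK1 (HOIL-1, a subunit of the linear ubiquitin ligase) is depleted. Cells received a non-targeting siRNA (si-Control) or 1 of 2 siRNAs against RBCK1, named si-HOIL-1#1 and si-HOIL-1#2 in the sample labels and si-RBCK1 #1 and si-RBCK1 #2 here, and RNA was taken after 48 h. Each condition had 1 library of 1 line, so there was no replicate spread, no p-value was computed, and the siRNAs were kept apart as different reagents. Both comparisons use the same si-Control library, so an error in that library moves both.

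The si-Control library held 36926834 reads by the totals recovered from the values, and the siRNA libraries #1 and #2 held 40442939 and 36344428. RBCK1 itself was at 33.3 RPKM with si-Control, 9.97 with si-RBCK1 #1 and 12.3 with si-RBCK1 #2. Of 7 renal epithelial markers, PAX8 was at 124, 82.5 and 107 RPKM in that order and KRT8 at 65.6, 172 and 238, while 4, 4 and 3 of the 7 lay below 1 RPKM. The summed level of the 7 was 287, 399 and 519 RPKM. Of 8 markers of blood, endothelial and stromal cells, 7 were below 1 RPKM in each library and 2 were at 0. The exception was CD68, at 41.8, 51.0 and 52.3 RPKM, and the 8 summed to 42.7, 51.8 and 53.0 RPKM. Whether the higher keratin levels have a part in the results below was not tested. In RNA from a whole culture, fewer cells expressing a gene and less of its RNA per cell cannot be told apart.

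In the integrated stress response, kinases that sense amino acid shortage, unfolded protein, haem deficiency or double-stranded RNA phosphorylate the initiation factor eIF2. General translation then slows while the ATF4 mRNA, which carries upstream open reading frames, is translated more, so its protein level need not follow its RNA level. ATF4 binds with C/EBP-family partners to composite elements in genes for amino acid synthesis and transport, tRNA charging and stress regulation, and it induces DDIT3 and ATF3, which encode further transcription factors of the same class.

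The sense strands of both siRNAs are shown because they are the treatments compared, as 19 bases each with no part in capitals.
si-RBCK1 #1: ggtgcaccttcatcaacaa
si-RBCK1 #2: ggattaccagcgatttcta
Neither matched in full any of the 86 annotated transcripts of the 10 members. Of 15 annotated RBCK1 transcripts, 7 were matched in full by si-RBCK1 #1 and 8 by si-RBCK1 #2. Only matches of all 19 bases were searched, so an effect of either siRNA on a member through a shorter match was not tested.

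Promoter windows of 300 bases, from 250 before to 50 after each RefSeq transcript start in GRCh38.p14, were available for 10 of 10 members. The C/EBP-ATF response element was searched as TGATGNAA on both strands. It was found for ASNS, ATF3 and CHAC1, 3 of 10 members (30.0%), and for 1217 of 27305 genes with a window (4.46%). The members were chosen as genes of the ATF4 programme, so their share is not independent of that choice. Elements outside the windows were not searched, so a gene without a match here may hold one elsewhere. The 3 windows with a match are printed 5′ to 3′ on the strand of the gene, with the match in capitals. They are shown because they hold a match to the letters through which ATF4 and its partners are known to act. ASNS and ATF3 have 2 windows each, and only the printed window held a match. The ASNS window is chr7:97872359-97872658 on the minus strand, with the match beginning 68 bases before the start. The ATF3 window is chr1:212565157-212565456 on the plus strand, with the match 191 bases before the start, and the CHAC1 window is chr15:40953221-40953520 on the plus strand, with a match on the opposite strand 209 bases before the start.
ASNS: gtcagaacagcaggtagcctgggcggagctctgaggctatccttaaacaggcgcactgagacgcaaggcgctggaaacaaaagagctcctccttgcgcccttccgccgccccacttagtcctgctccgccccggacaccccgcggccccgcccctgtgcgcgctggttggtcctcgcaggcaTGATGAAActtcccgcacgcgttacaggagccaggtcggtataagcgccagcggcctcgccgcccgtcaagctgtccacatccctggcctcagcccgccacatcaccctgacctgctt
ATF3: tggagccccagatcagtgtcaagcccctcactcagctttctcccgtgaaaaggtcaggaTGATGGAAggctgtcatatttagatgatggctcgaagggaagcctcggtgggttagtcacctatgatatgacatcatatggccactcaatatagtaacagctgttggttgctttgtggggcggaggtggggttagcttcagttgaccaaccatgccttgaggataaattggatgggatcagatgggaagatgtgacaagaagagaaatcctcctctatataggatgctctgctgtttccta
CHAC1: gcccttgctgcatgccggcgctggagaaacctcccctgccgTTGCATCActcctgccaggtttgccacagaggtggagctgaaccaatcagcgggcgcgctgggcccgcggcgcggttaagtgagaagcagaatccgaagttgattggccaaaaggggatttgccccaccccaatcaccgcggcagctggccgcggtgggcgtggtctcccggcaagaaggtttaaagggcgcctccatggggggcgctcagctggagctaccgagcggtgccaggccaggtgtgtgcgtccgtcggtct
The cyclic AMP response element TGACGTCA, which does not overlap those letters, was found for 0 of 10 members and for 614 of 27305 genes (2.25%). A match is a description of letters and not of binding. The 3 genes with a match took different places in the results below, since ASNS was among the lowest ratios and CHAC1 had the ratio nearest 0 with si-RBCK1 #1.

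Levels of the 10 genes under si-Control ran from 134 RPKM for ATF4 through DDIT4 (132), PSAT1 (124), DDIT3 (117), ASNS (88.6), PHGDH (83.5), ATF3 (69.6), TRIB3 (64.7) and SESN2 (49.5) to 12.7 for CHAC1. ATF4 stayed first and CHAC1 last in each library, but under si-RBCK1 #1 SESN2 stood next to ATF4, whereas ASNS and TRIB3 came just above CHAC1. With 1 library per condition, no spread is known by which neighbours in this order could be told apart. Their summed level was 876 RPKM with si-Control, 516 with si-RBCK1 #1 and 480 with si-RBCK1 #2.

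Differences are given as log2 ratios of RPKM with 1 RPKM added to each value, and called means a difference of at least 2-fold on that scale. With si-RBCK1 #1, 4 members were called lower, where 3.27% of all genes were, and 0 were called higher, where 2.91% were. With si-RBCK1 #2, 3 were called lower against a background of 2.27% and 0 higher against 2.50%. With both siRNAs 3 were called lower, against 1.41% of all genes, and 0 higher, against 1.46%. The median of the 10 log2 ratios was -0.84 with si-RBCK1 #1 and -0.75 with si-RBCK1 #2, while over all genes tested it was 0.02 and 0.03. Lower in any degree with both siRNAs were 9 of 10 members and 38.2% of all genes.

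Reads behind each member were recovered from the RPKM values, and numbered 530 to 10339 per gene and library. They are the smallest whole numbers that the values allow. Exact Clopper-Pearson intervals (95%) on the ratio of these reads are given beside the ratios. They cover counting error only, not differences between cultures, and they hold no pseudocount. All 10 intervals lay clear of 0 in each comparison, including PSAT1 between the siRNAs at 0.06 (0.01 to 0.12). With this many reads even small differences clear 0. The share over all genes was not computed, so the count does not set the members apart.

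ATF4, the master factor of the response (hg19 chr22:39916564-39918691, plus strand), was at 134 RPKM with si-Control, 110 with si-RBCK1 #1 and 96.0 with si-RBCK1 #2. Both depleted libraries were below si-Control, and the shift was among the smaller ones of the 10. Its log2 ratio was -0.28 with si-RBCK1 #1 (interval -0.33 to -0.25) and -0.48 with si-RBCK1 #2 (-0.53 to -0.44). Of all genes tested, 26.6% had a ratio at or below that of ATF4 with si-RBCK1 #1 and 12.9% with si-RBCK1 #2. Named pseudogenes of ATF4 were at 0.133 RPKM at most.

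DDIT3 encodes CHOP, a factor that drives cell death genes under prolonged stress (chr12:57910371-57914300, minus strand). Its levels were 117 RPKM with si-Control, 59.8 with si-RBCK1 #1 and 76.4 with si-RBCK1 #2. Both depleted libraries were lower, and si-RBCK1 #1 the lower of them. The log2 ratio was -0.96 (interval -1.04 to -0.90) with si-RBCK1 #1, just short of the 2-fold limit, and -0.61 (-0.68 to -0.55) with si-RBCK1 #2. DDIT3 shares 68 bases with the end of MARS, on the opposite strand, and MARS was also lower. The library kit was directional, but how strand was used in counting is not stated in the sources used here.

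ATF3, a stress-induced factor of the same class that mostly represses its targets (chr1:212738676-212794119, plus strand), was at 69.6 RPKM with si-Control, 44.2 with si-RBCK1 #1 and 37.8 with si-RBCK1 #2. Here si-RBCK1 #2 gave the lower value of the pair, unlike DDIT3. This gave a log2 ratio of -0.64 (interval -0.71 to -0.60) with si-RBCK1 #1 and -0.86 (-0.94 to -0.82) with si-RBCK1 #2. None of the 3 transcription factors was called with either siRNA, where 3.27% and 2.27% of all genes were called lower. With so few genes this does not set them apart.

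TRIB3, a pseudokinase that binds ATF4 and CHOP and dampens them (chr20:361273-378203, plus strand), was at 64.7 RPKM with si-Control, 22.5 with si-RBCK1 #1 and 26.7 with si-RBCK1 #2. Both depleted libraries lay far below si-Control. The log2 ratio was -1.48 (interval -1.59 to -1.46) with si-RBCK1 #1 and -1.25 (-1.34 to -1.21) with si-RBCK1 #2. Without the added 1 RPKM its level was 2.87-fold and 2.42-fold lower. It was the lowest ratio of the 10 members with si-RBCK1 #1, and only 0.726% of genes tested lay at or below it.

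TRIB3 is also the gene directly upstream of the siRNA target in the table, on the same strand, with 10490 bases between the end of TRIB3 and the start of RBCK1. RBCK1 (chr20:388694-412783, plus strand) had log2 ratios of -1.65 and -1.37. On the far side of RBCK1, TBC1D20, which encodes a Rab-GTPase activator, was at 7.48, 8.16 and 8.13 RPKM (log2 ratios 0.11 and 0.11). NRSN2, the next tested gene upstream of TRIB3, was at 10.3, 11.1 and 11.9 RPKM (0.09 and 0.19). Thus NRSN2 and TBC1D20, the tested genes next to the TRIB3 and RBCK1 pair, were close to their si-Control level. Farther upstream, C20orf96 was at 4.73, 2.12 and 2.94 RPKM (-0.88 and -0.54). The other tested genes within 100 kb lay on both sides of 0. They were NRSN2-AS1 (-0.46 and -0.55), ZCCHC3 (0.56 and 0.18), SOX12 (-0.29 and -0.06) and CSNK2A1 (-0.06 and -0.03). Whether the short distance to RBCK1 has a part in the TRIB3 difference was not tested.

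CHAC1, which degrades glutathione (chr15:41245347-41248717, plus strand), was the least abundant member, at 12.7 RPKM with si-Control, 10.8 with si-RBCK1 #1 and 7.89 with si-RBCK1 #2. The si-RBCK1 #1 value was near si-Control and the si-RBCK1 #2 value lower. This gave a log2 ratio of -0.22 (interval -0.38 to -0.10) with si-RBCK1 #1 and -0.62 (-0.85 to -0.53) with si-RBCK1 #2. With 867, 804 and 530 reads it also had the widest intervals.

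DDIT4 encodes REDD1, an inhibitor of mTORC1 that stress, hypoxia and p53 are known to induce (chr10:74033677-74035794, plus strand). It was at 132 RPKM with si-Control, 56.3 with si-RBCK1 #1 and 47.7 with si-RBCK1 #2. Both depleted libraries were far below si-Control, by 2.35-fold and 2.78-fold in RPKM as deposited. The log2 ratio was -1.22 (interval -1.29 to -1.18) with si-RBCK1 #1 and -1.46 (-1.53 to -1.41) with si-RBCK1 #2. An antisense gene that overlaps DDIT4 was listed at 0 in each library.

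SESN2, a leucine sensor that also restrains mTORC1 and is known as a target of ATF4 and of p53 (chr1:28585963-28609002, plus strand), went against the rest. It was at 49.5 RPKM with si-Control, 68.1 with si-RBCK1 #1 and 43.0 with si-RBCK1 #2. The siRNA libraries thus lay on opposite sides of si-Control, at 137.6% and 86.9% of its level. For SESN2 the log2 ratio was 0.45 (interval 0.40 to 0.53) with si-RBCK1 #1 and -0.20 (-0.28 to -0.13) with si-RBCK1 #2. Its paralog SESN1, a known p53 target, was at 2.68, 10.5 and 7.76 RPKM and was called higher with both siRNAs (1.65 and 1.25).

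ASNS, asparagine synthetase and a standard reporter of ATF4 activity (chr7:97481429-97501854, minus strand), was at 88.6 RPKM with si-Control, 33.0 with si-RBCK1 #1 and 26.5 with si-RBCK1 #2. This is 37.2% and 29.8% of the si-Control level. The log2 ratio was -1.40 (interval -1.48 to -1.37) with si-RBCK1 #1 and -1.71 (-1.81 to -1.68) with si-RBCK1 #2, the lowest ratio of any member in either comparison. With si-RBCK1 #2, 0.258% of genes tested were at or below it.

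PHGDH and PSAT1 act one after the other in serine synthesis from a glycolytic intermediate, before the last enzyme, PSPH. PSAT1 (chr9:80911991-80945009, plus strand) was at 124 RPKM with si-Control, 61.6 with si-RBCK1 #1 and 64.4 with si-RBCK1 #2. Its log2 ratio of -1.0 with si-RBCK1 #1 (interval -1.06 to -0.96) lay on the 2-fold limit, and it was the last of the 405 genes called lower. With si-RBCK1 #2 it was -0.94 (-0.99 to -0.90), which was not called, so the count of 4 against 3 rests on a gene at the limit. PHGDH (chr1:120254419-120286849, plus strand) was at 83.5 RPKM with si-Control, 50.0 with si-RBCK1 #1 and 53.6 with si-RBCK1 #2. The log2 ratios of PHGDH were -0.73 and -0.63, and both depleted libraries were below si-Control without reaching the limit. PSPH, which is not among the 10, was at 27.8, 21.8 and 25.4 RPKM, with ratios of -0.34 and -0.12 that were closer to 0 than those of PHGDH and PSAT1.

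**Figure D1:**
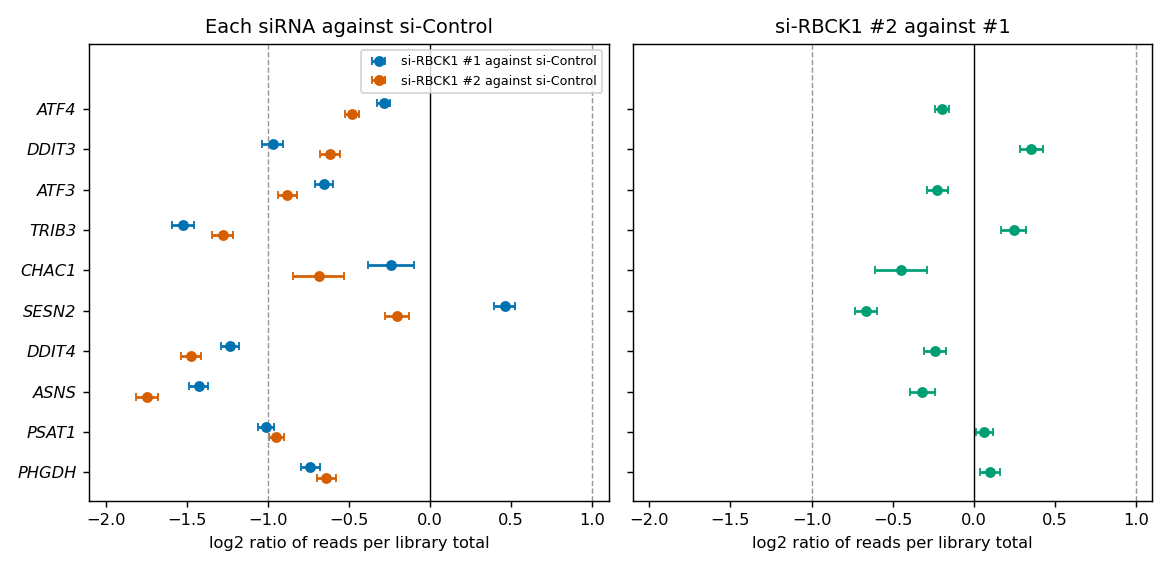
Log2 ratio of reads per library total (x axis, no pseudocount) for each member, with exact 95% counting intervals and dashed lines at the 2-fold limits. Left, each siRNA against si-Control, where ASNS, TRIB3 and DDIT4 lie beyond -1 with both and SESN2 lies on both sides of 0. Right, si-RBCK1 #2 against #1, where every member lies within the limits.

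The siRNA libraries were also compared directly, which leaves out si-Control. With si-RBCK1 #2, 6 members were lower than with #1 and 4 were higher, where 48.2% of all genes tested were lower. Called were 0 of 10, where 1.38% of all genes were called in either direction. The largest difference was in SESN2, with a log2 ratio of -0.65 (interval -0.73 to -0.60). The next were CHAC1 at -0.40, DDIT3 at 0.35 and ASNS at -0.31. PSAT1 and PHGDH, which act in 1 pathway, differed by 0.06 and 0.10.

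Related genes were taken from 9 lists with 94 genes, of which 90 were tested. The lists, like the members, were chosen with earlier results of these data known. They also hold the XBP1 and ATF6 arms of the unfolded protein response and paralogs of the members. Of the 90, 14 were called lower with both siRNAs and 3 higher, beside the 1.41% and 1.46% of all genes. The 3 called higher were SDF2L1 and CRELD2 of those arms and the paralog SESN1. Of 14 genes for eIF2 kinases, eIF2 and its exchange factor and phosphatase subunits, the median log2 ratio was 0.29 with si-RBCK1 #1 and 0.25 with si-RBCK1 #2. Above 0 were 10 and 12 of the 14, beside 6393 and 6641 of the 12403 genes tested. The one called was PPP1R15A, which encodes GADD34, the stress-induced phosphatase subunit that reverses eIF2 phosphorylation and is a target of ATF4 and CHOP. It was at 176 RPKM with si-Control, 87.5 with si-RBCK1 #1 and 72.5 with si-RBCK1 #2 (log2 ratios -1.0 and -1.27). EIF2AK1, the haem-regulated kinase, was at 21.4, 33.0 and 31.9 RPKM (0.60 and 0.56). EIF2AK3, the kinase of endoplasmic reticulum stress known as PERK, was at 5.42, 5.28 and 6.68 RPKM (-0.03 and 0.26), and EIF2AK4, the amino acid sensor GCN2, at 14.1, 17.4 and 16.8 (0.29 and 0.24). EIF2AK2, the kinase PKR that senses double-stranded RNA, was at 15.3, 15.1 and 17.0 RPKM (-0.02 and 0.14). So the kinases showed no difference of 2-fold in RNA. Phosphorylation of eIF2, by which the response is switched on, is not measured by RNA.

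Of the 8 tested C/EBP and other partner factors, 1 was called lower with si-RBCK1 #1 and 0 with si-RBCK1 #2, beside 3.27% and 2.27% of all genes. The one called was CEBPG, a partner of ATF4 at amino acid genes, at 27.9, 12.5 and 14.1 RPKM (log2 ratios -1.09 and -0.94). At the other end, ATF5, itself under ATF4-like translational control, was at 6.92, 11.7 and 12.9 RPKM (0.69 and 0.81). The median of the list was -0.38 and -0.26.

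The 37 tested genes for amino acid enzymes, amino acid transporters and tRNA synthetases lay mostly on the same side as ASNS and PSAT1. Of these, 33 were lower in some degree with both siRNAs and 6 were called lower with both, beside 38.2% and 1.41% of all genes. None was called higher with both, where 1.46% of all genes were. Medians by list were -0.29 and -0.21 for other serine, glycine and one-carbon enzymes (8 genes), -0.76 and -0.54 for proline, cysteine and transamination enzymes (9), -0.84 and -0.65 for transporters (8), and -0.68 and -0.67 for cytosolic synthetases (12).

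CTH, the last enzyme of cysteine synthesis from methionine, was at 34.4 RPKM with si-Control, 13.9 with si-RBCK1 #1 and 12.1 with si-RBCK1 #2 (log2 ratios -1.25 and -1.44). BCAT1, which transaminates branched-chain amino acids, was at 38.3, 17.7 and 13.9 RPKM (-1.07 and -1.40). SLC7A11, the cystine transporter, was at 13.4, 4.21 and 4.76 RPKM (-1.47 and -1.32). CBS, the enzyme before CTH in that synthesis, was at 34.5, 14.4 and 20.1 RPKM (-1.20 and -0.75) and so was called with si-RBCK1 #1 alone. Nearer to si-Control, SLC3A2, which encodes the heavy chain that pairs with SLC7A11, was at 130, 125 and 148 RPKM (-0.06 and 0.18), and ALDH18A1, of proline synthesis, at 33.2, 33.6 and 36.9 (0.02 and 0.15).

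In the folate branch, ALDH1L2, a mitochondrial folate enzyme, was at 12.2, 4.07 and 6.09 RPKM (-1.38 and -0.90), and SHMT1, the cytosolic serine hydroxymethyltransferase, at 15.2, 17.4 and 24.5 (0.18 and 0.65). All 12 synthetases were below si-Control with each siRNA, where 48.4% and 46.4% of all genes tested were. AARS, which charges alanine tRNA, was at 275, 124 and 117 RPKM (-1.15 and -1.23). MARS, for methionine, was at 93.3, 40.4 and 40.8 RPKM (-1.19 and -1.17), and YARS, for tyrosine, at 133, 65.1 and 58.1 (-1.02 and -1.18). IARS, for isoleucine, was the nearest to si-Control of the 12, at 113, 99.6 and 93.7 RPKM (-0.19 and -0.27).

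Among 13 tested further targets of ATF4 or CHOP, 9 were called lower with si-RBCK1 #1, 8 with si-RBCK1 #2 and 8 with both, beside 3.27%, 2.27% and 1.41% of all genes, with medians of -1.06 and -1.09. STC2, a secreted stanniocalcin, had the lowest ratios of any list gene, at 353, 72.1 and 79.3 RPKM (-2.28 and -2.14). NUPR1, a stress-induced chromatin protein, was at 171, 62.7 and 63.0 RPKM (-1.44 and -1.43), and VEGFA, the angiogenic factor, at 63.7, 25.7 and 29.3 (-1.28 and -1.09). GDF15, a secreted stress hormone, was at 1680, 815 and 836 RPKM (-1.04 and -1.01). The others called with both were PPP1R15A, UPP1, which cleaves uridine (-1.06 and -1.19), ADM2, a secreted peptide of the adrenomedullin family (-1.17 and -1.21), and EIF4EBP1, a repressor of cap-dependent translation (-1.23 and -1.20). The values of EIF4EBP1 gave no whole reads and are less certain for that reason. TNFRSF10B, the death receptor DR5, stood apart at 106, 128 and 83.7 RPKM (0.26 and -0.34).

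The other arms of the unfolded protein response, run by XBP1 and ATF6, had medians of 0.23 and 0.33 over 16 genes. With each siRNA 0 were called lower, where 3.27% and 2.27% of all genes were. Called higher were 2 with si-RBCK1 #1 and 3 with si-RBCK1 #2, where 2.91% and 2.50% of all genes were. SDF2L1, an endoplasmic reticulum chaperone cofactor, was at 6.85 RPKM with si-Control, 26.0 with si-RBCK1 #1 and 29.9 with si-RBCK1 #2 (log2 ratios 1.78 and 1.98). CRELD2, a folding factor of the same compartment, was at 6.56, 14.8 and 24.0 RPKM (1.06 and 1.72). Both were called higher with each siRNA, opposite in sign to ASNS, TRIB3 and DDIT4. XBP1 was the lowest of the list, at 88.1, 55.9 and 44.3 RPKM (-0.65 and -0.98). Of 6 tested paralogs of the members, SESN1 was the one called, higher with both siRNAs, as were 1.46% of all genes. The median of the 6 was -0.01 and -0.03. JDP2, a repressor related to ATF3, was the lowest of the 6, at 5.26, 3.31 and 2.35 RPKM (-0.54 and -0.90).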

How the data were processed

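Total RNA of 3 Caki-1 libraries was depleted of ribosomal RNA and sequenced paired-end. The authors deposited 1 table of RPKM per gene and library. Coordinates are hg19, per the submitters' processing notes, which also name TopHat2, Trimmomatic, FastQC and HTSeq. The annotation and tool settings are not given in the sources used here, and the methods and sample records name different sequencing providers. The authors' own comparison columns (control and treated values, log2 fold change, p-value, q-value) were not used. A single gene outside the lists has an entry that is not a number.

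Log2 ratios used RPKM + 1 and were kept where the mean over libraries reached 1 RPKM. With 1 library per condition nothing was tested, and called means at least 2-fold. Library totals were recovered from RNAs of up to 200 nt, and whole reads for 99.9% of tested genes, within 0.002 reads. RPKM divides by the library total, so a few very abundant RNAs can shift all other genes.

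The members and lists were chosen with earlier results of these data known. Genes named by rule are the members, RBCK1, list genes called with both siRNAs in 1 direction, the extremes of each list by mean ratio and any eIF2-list gene (the kinases and PPP1R15A are given). Cell type markers come from their own list, and neighbours of TRIB3, CBS, PSPH and ERO1A were chosen after their values were seen. ERO1L was matched to ERO1A through RefSeq synonyms. Promoters came from RefSeq. Alternatives were other scalings, pseudocounts, filters, limits, protein-coding genes only and recovered reads. Recovery of reads and 2-fold calls with both siRNAs were tested on simulated libraries. These held counting error only, with no spread between cultures, and the other steps were not simulated. Scripts ran under Python 3.11.15 with scipy 1.17.1, pandas 2.3.3 and numpy 2.4.6, and plots with matplotlib 3.10.9.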

Additional observations from a re-analysis of the deposited data

Results flagged for a closer look

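SESN2 was the one member whose difference from si-Control had opposite signs with the siRNAs, at 0.45 on the log2 scale with si-RBCK1 #1 and, with the other siRNA, -0.20. The libraries differed from each other by -0.65 (si-RBCK1 #2 against #1). With 1 library per siRNA, the difference was not tested against the spread between cultures.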

How the results depend on the processing

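No member changed sign under any alternative run. Of 160 recomputed log2 ratios of members, 146 moved by less than the distance from the ratio of reads to an end of its counting interval. The other 14 moved by more. ASNS ranged from -1.45 to -1.30 with si-RBCK1 #1 and from -1.76 to -1.57 with si-RBCK1 #2. Counts of members depended on the fold limit, by its construction. With a 1.5-fold limit, 7 were lower with si-RBCK1 #1, 8 with si-RBCK1 #2 and 7 with both, beside 11.6%, 9.32% and 6.24% of all genes, and with a 4-fold limit 0, 0 and 0, beside 0.185%, 0.113% and 0.0484%. Of the tested genes of the related lists, 28 were lower with both siRNAs and 6 higher at 1.5-fold (6.24% and 7.47% of all genes). At 4-fold, 1 was lower and 0 were higher (0.0484% and 0.0403%). A pseudocount of 5 RPKM left 8 lower and 1 higher, beside 0.476% and 0.532% of all genes. It moves each ratio toward 0, past the limit for genes near it and for genes of low level. Without EIF4EBP1, an alternative added after seeing the data, 13 were lower. The share of all genes called lower with both was 2.64% with a pseudocount of 0.1 RPKM and 0.476% with 5 RPKM. With libraries scaled to equal totals 5 members were called lower with si-RBCK1 #1, beside 3.8% of all genes. With a pseudocount of 5 RPKM there were 3, beside 0.847%. No paired analysis was possible because there was only a single library for every condition. Intervals cover counting error only, and differences between cultures, transfections or library preparations cannot be told apart from those between siRNAs.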

Other observations

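Apart from SESN2, 9 of the 90 tested genes of the related lists had opposite signs with the siRNAs. Of the 90, 56 were lower with both and 25 higher with both, beside 4741 and 5372 of the 12403 genes tested. Opposite signs were thus no more frequent in the lists than over all genes. Of the 9, the widest gap was in ERO1A, an oxidase of protein folding induced by CHOP, chosen here after its values were seen. It was at 17.1 RPKM with si-Control, 9.91 with si-RBCK1 #1 and 19.8 with si-RBCK1 #2, with log2 ratios of -0.73 and 0.20.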
